A study of Mus musculus with 48 samples.

Results

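Muscle B cells were the cells that carried the deposited cell type label B cells and the organ label muscle, in a single-cell RNA study of mice with collagen-induced arthritis (CIA). This rule gave 185 cells among 12096 annotated cells of the whole series, and among 1372 cells labelled B cells in all organs. Spleen held 1182 of those B cells and served for comparison. The library labelled muscle of mouse S8 gave 150 of the 185 cells (81.1%), and the other 35 cells came from 5 mice.

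Seq-Well, in which cells settle into nanowells beside beads that carry a cell barcode and each transcript is counted by its unique molecular identifier (UMI), was applied to 5 organs, of which muscle and spleen are used here. All mice were male DBA1/J, an inbred strain prone to CIA, and were 8 to 12 weeks old. The 6 CIA mice had received 100 µg of bovine type II collagen in complete Freund's adjuvant at the tail base and a booster in incomplete adjuvant on day 20, while the 4 healthy mice had been injected with phosphate-buffered saline and had an arthritis score of 0. Mice S1, S2, and S3 had an arthritis score of 8, and the scores of S5, S6, and S8 were 4 to 5, 3 to 4, and 2 to 3. The model rests on immunization rather than on a transgene, and each library was made from cryopreserved tissue of 1 mouse.

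B cells pass through stages that can be told by their transcripts. Precursor B cells in bone marrow use the surrogate light chain (*Vpreb1*, *Igll1*), the recombinase *Rag1*, and the DNA polymerase *Dntt* to assemble the receptor. *Vpreb3* was also counted among the precursor genes here. Mature B cells of the spleen carry *Ms4a1* (CD20), *Cd22*, the receptor subunit *Cd79a*, the delta heavy chain *Ighd*, and the IgE receptor *Fcer2a*. Plasma cells lose most of these and raise the joining chain *Jchain*, the factor *Xbp1*, and the chaperone *Mzb1*, along with large amounts of immunoglobulin mRNA such as *Ighm* and *Igkc*. Skeletal muscle normally holds few B cells.

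The library labelled muscle of S8 went against its organ label. It held 0 cells labelled as fibroblasts, endothelial cells, or myocytes among 262 annotated cells, whereas these made up 2.86% to 89.4% of the annotated cells in the other 9 muscle libraries. Fibroblast marker genes took 10.1 CPM (UMIs scaled to the same total in each library) in this library, against 250 to 24595 in the other muscle libraries and 8.80 to 56.1 in the 10 spleen libraries. Over 2617 genes, its profile correlated with that of the S8 spleen library at r = 0.94, with those of the other 9 spleen libraries at r = 0.75 to 0.91, and with those of the other muscle libraries at r = 0.48 to 0.78. These correlations are across genes, which are not independent replicates.

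**Figure D1:**
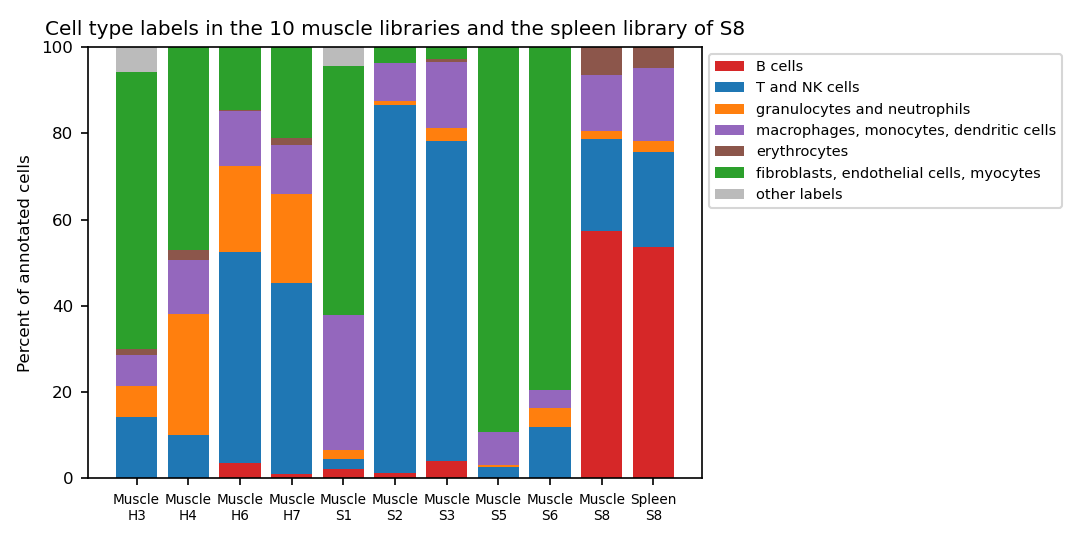
Cell type labels as a percent of annotated cells (vertical axis) in the 10 muscle libraries and, at the right, the spleen library of S8. B cells made up 57.3% of the library labelled muscle of S8 and 53.6% of the S8 spleen library, and at most 4.0% of any other muscle library.

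This library also shared cell barcodes with the spleen library of the same mouse. The libraries, of 285 and 324 cells, had 36 barcodes in common, while among the other pairs of the 20 muscle and spleen libraries the highest number was 2, and 188 of 190 pairs shared none. All 34 shared barcodes annotated in both libraries had the same cell type label, and 14 were B cells in both. The UMI counts (log scale) of the copies of a barcode correlated over genes at r = 0.74 to 0.86, against a median of 0.31 and a maximum of 0.53 in 1260 unmatched pairs of these cells. The copy in the library labelled muscle had 1.41 to 2.28 times the UMIs of the spleen copy (median, 1.96). The 3 shared B cell barcodes with the most UMIs are shown because they occur in both libraries with the same label.

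Barcode A: ccggcttcactt
Barcode B: gctaagtcttag
Barcode C: tatggtgattca

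Barcode A had 2173 UMIs under muscle and 1007 under spleen. Barcode B had 1529 and 736, and barcode C had 1447 and 738, so that each copy under muscle was the larger. Values below are therefore given per library, and tests with and without the library labelled muscle of S8, and the name "muscle of S8" refers to that label.

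**Figure D2:**
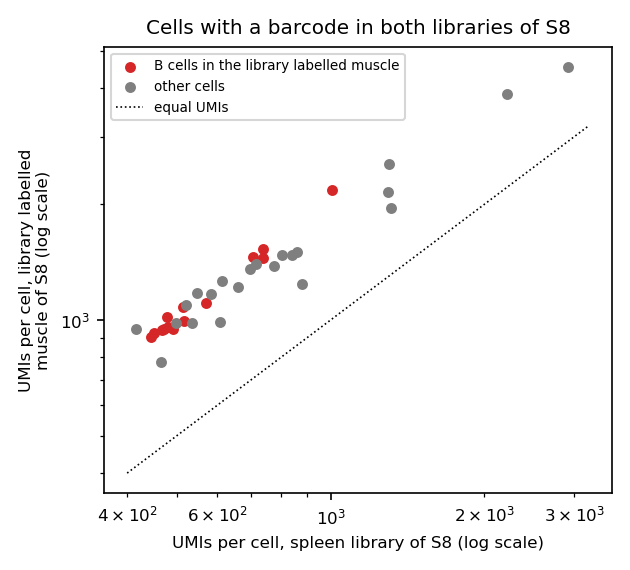
UMIs per cell of the 36 barcodes found in both libraries of S8, with the spleen library on the horizontal axis and the library labelled muscle on the vertical axis (both log scales). All points lie above the dotted line of equal UMIs, at 1.41 to 2.28 times the spleen count.

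B cells were present in 6 of 10 muscle libraries. Among healthy mice, H6 had 13 of 370 annotated cells (3.51%, 95% Wilson interval 2.06 to 5.92) and H7 had 5 of 449 (1.11%, 0.477 to 2.58), and H3 and H4 had 0 of 70 and 0 of 168, which allows shares of up to 4.29% and 1.79%. Among CIA mice, S1 had 1 of 45 (2.22%), S2 had 9 of 689 (1.31%), S3 had 7 of 175 (4.0%), and muscle of S8 had 150 of 262 (57.3%). S5 and S6 had 0 of 348 and 0 of 1989, which allows up to 0.862% and 0.151%. These intervals and limits cover counting error only.

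The share of B cells was lower in muscle than in spleen in 9 of 10 mice, with S8 as the exception. It averaged 6.94% ± 17.7 (SD, n = 10) in muscle and 40.0% ± 16.1 (SD, n = 10) in spleen, a difference of -33.1 percentage points (two-sided exact paired permutation test, p = 0.0039). Without S8, the means were 1.35% ± 1.57 and 38.5% ± 16.4 (n = 9), and the difference of -37.2 points had p = 0.0039 in the same exact test, the smallest that 9 pairs can give.

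CIA and healthy mice were compared for the share of B cells among muscle cells, which asks whether B cells were more frequent in the muscle of sick mice. The mean was 10.8% ± 22.8 (SD, n = 6) in CIA and 1.16% ± 1.66 (SD, n = 4) in healthy mice, a difference within the spread between mice (two-sided exact permutation test, p = 0.43). Without muscle of S8, the CIA mean was 1.51% ± 1.68 (n = 5) and the difference fell from 9.64 to 0.349 percentage points (exact permutation test, p = 0.71). Red blood cell lysis was listed for muscle of H6, H7, S2, S3, S6, and S8, so that 5 of the 6 libraries with B cells were lysed, and its part in the shares was not tested beyond the lysed libraries alone (2 healthy against 4 CIA, exact permutation p = 0.8).

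The 185 cells held 111594 UMIs in all, and the 35 cells outside S8 held 18431. Summed over cells, the libraries had 6871 UMIs (H6), 2606 (H7), 456 (S1), 4479 (S2), 4019 (S3), and 93163 (S8), against 13732 to 205093 in spleen. At these depths 3 counts correspond to 437, 1151, 670, 746, and 32.2 CPM in H6, H7, S2, S3, and S8. In the 35 cells together, a count of 0 allows up to 163 CPM. All levels below are CPM of the summed B cells of a library, with no length correction, and are compared between libraries and not between genes.

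The markers of the label, *Ms4a1*, *Cd22*, and *Cd79a*, were checked together. Their summed level was 2183 CPM in H6, 2686 in H7, 2679 in S2, 249 in S3, and 2705 in S8, and in spleen the lowest, median, and highest values were 874, 1915, and 2355 CPM. H7, S2, and S8 were thus above all spleen libraries, H6 was above the spleen median, and S3 was below all of them. These levels rest on 15 UMIs in H6, 7 in H7, 12 in S2, 1 in S3, and 252 in S8. *Ms4a1* and *Cd22* were also among the authors' markers for the label, so that high levels are no independent support for it. T cells, which should lack these genes, held 153 to 553 CPM in the muscle libraries with at least 3 of them. In S3 the cells labelled B cells had 1 marker UMI, less than the 411 CPM in T cells of the same library, so their markers did not bear out the label. The single cell of S1 also had 1 marker UMI, from *Cd79a*.

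The cells outside S8 were also read 1 by 1. Of the 35 cells, 24 had at least 1 UMI of the 12 B cell identity genes, 33 had an immunoglobulin constant region UMI, and 1 had neither. An identity UMI was also found in 54.8% of 1274 T cells in the muscle libraries other than S8, against 68.6% of the 35 cells. Such a UMI alone thus does not bear out the label of a cell. In S3, 2 of 7 cells had an identity UMI while all 7 had an immunoglobulin UMI, and 1 of them held 488 haemoglobin UMIs among 1135 (43.0%). That cell carried most of the erythroid signal of S3, which reached 123414 CPM over the 6 erythroid markers, against 0 to 14198 in H6, H7, S2, and S8 and 656 to 58325 in spleen. Its part in the S3 values was not tested.

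After thinning each cell to 400 UMIs, 15 of the 35 cells (42.9%, Wilson interval 28.0 to 59.1) had a UMI of the 3 markers, against 15.5% of 1274 T cells in the muscle libraries other than S8 (median depths, 491 and 579 UMIs). Without thinning the shares were 45.7% and 24.4%. In muscle of S8 the thinned share was 63.3% of 150 B cells (74.0% without thinning), and in spleen it was 49.7% of 1182 (63.0%). Cells of a library share their source, so that these shares are descriptions and not replicated values.

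Precursor genes were nearly absent. *Vpreb1*, *Igll1*, *Rag1*, and *Dntt* had 0 UMIs in all 185 muscle B cells, and *Vpreb3* had 7 UMIs, all in S8 (75.1 CPM). In the 10 spleen libraries the highest values were 11.6 CPM for *Vpreb1*, 35.8 for *Igll1*, 17.9 for *Dntt*, and 95.8 for *Vpreb3*, and *Rag1* was at 0 in each. These spleen levels lie under the 163 CPM that a count of 0 allows in the 35 cells, so a difference was not detectable at this depth. Of the 15 precursor genes, 5 had a UMI in muscle B cells and 2 outside S8, namely *Il7r* and *Lef1* with 1 UMI each, genes that T cells also use. None passed the filter on low counts. After thinning, 1 of the 35 cells (2.86%) had a UMI of the list, against 9.18% of muscle T cells, and without thinning the shares were 5.71% and 14.5%.

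Mature B cell genes were found in H6, H7, S2, S3, and S8. The 15 genes of the mature list, which includes 2 of the label's markers, summed to 3202 CPM in H6, 7291 in H7, 5805 in S2, 1493 in S3, and 4712 in S8. In spleen the lowest, median, and highest sums were 2549, 4016, and 5593 CPM. H7 and S2 were above all spleen libraries and S3 below all of them, so that the groups overlapped. T cells of the same muscle libraries were lower in each case, at 1492 CPM in H6, 1438 in H7, 1404 in S2, and 981 in S3. After thinning, 24 of the 35 cells (68.6%) had a UMI of the list, against 43.2% of muscle T cells, 76.7% of S8 muscle B cells, and 76.6% of spleen B cells. Without thinning the shares were 80.0%, 57.8%, 85.3%, and 86.4%.

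*Ms4a1*, which encodes CD20 (chromosome 19, 11249675 to 11266241, GRCm38), had 437 CPM in H6, 1919 in H7, 893 in S2, 0 in S3, and 1449 in S8, and 218, 788, and 1213 CPM (lowest, median, highest) in spleen. *Cd22*, an inhibitory coreceptor (chromosome 7, 30865402 to 30880342), had 728, 384, 893, 249, and 504 CPM in the same order, within 211 to 729 CPM in spleen except in S2. *Cd79a*, the signalling subunit of the B cell receptor (chromosome 7, 24897381 to 24902197), had 1019, 384, 893, 0, and 751 CPM, with 218 to 809 CPM in spleen. In each of the 3 genes the muscle libraries spread on both sides of the spleen median, on 0 to 7 UMIs in each library outside S8.

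*Fcer2a*, the low-affinity IgE receptor of mature B cells, had 291 CPM in H6, 767 in H7, 223 in S2, 249 in S3, and 129 in S8, against a spleen median of 86.5 and a highest value of 258. These levels rest on 1 or 2 UMIs in each library outside S8. *Ighd* had 437 CPM in H6, 384 in H7, 0 in S2 and S3, and 419 in S8, against 210, 374, and 751 CPM in spleen, so that a delta heavy chain UMI was seen in 4 of the 35 cells.

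**Figure D3:**
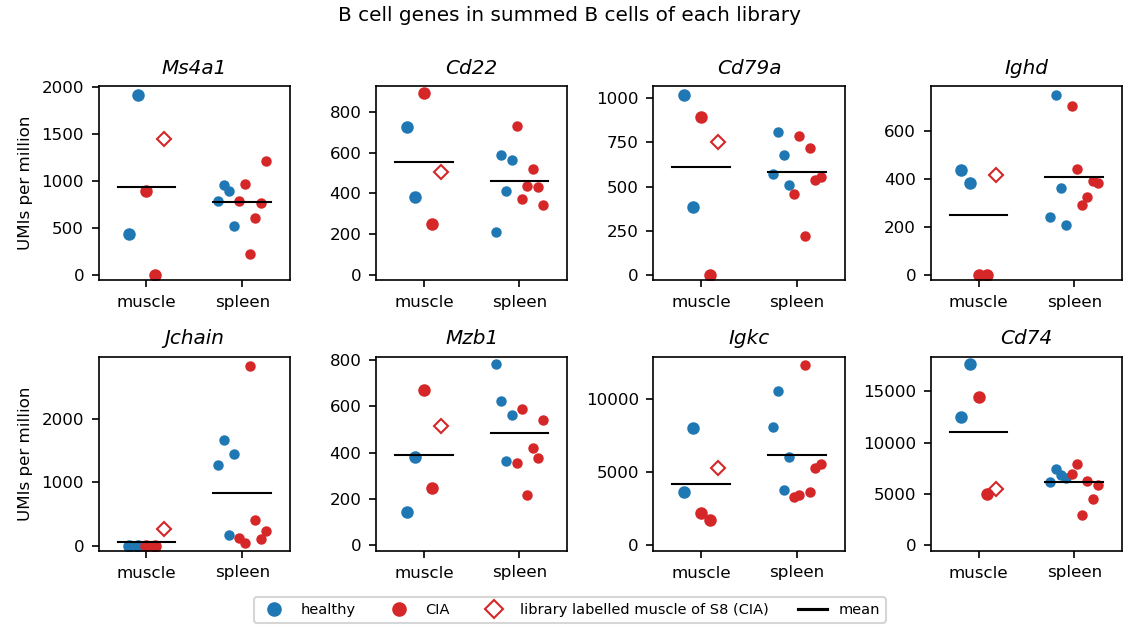
CPM (vertical axes, linear) of 8 genes in the summed B cells of 5 muscle and 10 spleen libraries, with 1 point per library and a bar at the mean. *Jchain* was at 0 in 4 muscle libraries, and *Cd74* was above all spleen libraries in H6, H7, and S2.

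Plasma cell genes were not above the spleen range in any muscle library. The 14 genes of the plasma list summed to 582 CPM in H6, 384 in H7, 893 in S2, 249 in S3, and 1084 in S8, and to 876, 1128, and 3423 CPM (lowest, median, highest) in spleen. H6, H7, and S3 were below all spleen libraries, and S2 and S8 were within their range. The muscle sums outside S8 rest on 10 UMIs. T cells of the same libraries had 588 CPM in H6, 793 in H7, 600 in S2, and 2986 in S3, so that among these 4 libraries only S2 was above its T cells and the other 3 levels are read as background. In S8 the 9 T cells held 3257 CPM, so that the 1084 CPM of its B cells was not above its T cells either.

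*Jchain*, which joins secreted IgM and IgA (chromosome 5, 88519809 to 88527891), had 0 UMIs in H6, H7, S1, S2, and S3 and 24 UMIs (258 CPM) in S8. In spleen the lowest, median, and highest levels were 46.3, 313, and 2840 CPM. The spleen mean of 828 ± 939 CPM (SD, n = 10) was 5.09-fold the 163 CPM that a count of 0 allows over the 35 cells. The levels in spleen of S1, S2, and S6 (115, 46.3, and 107 CPM) lay under that limit, so that the 35 cells could not be told from these 3 libraries. The limit also takes UMIs as independent, while only 10.7% of spleen B cells held a *Jchain* UMI. After thinning, 0 of the 35 cells held one (Wilson interval up to 9.89%), against 7.4% of spleen B cells. That interval covers counting error only, and by spleen library the thinned share ran from 2.36% (S2) to 26.2% (H7). The pooled cells are not replicates, so that these shares show no difference between the groups. *Mzb1* had 146 CPM in H6, 384 in H7, 670 in S2, 249 in S3, and 515 in S8, against 218 to 783 in spleen. *Xbp1* had 1 UMI in the 35 cells (54.3 CPM, 95% Poisson interval 1.37 to 302) and 140 CPM in S8, against 34.8 to 157 CPM in spleen.

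*Prdm1*, *Sdc1*, *Tnfrsf17*, and *Derl3*, which mark the secreting state, had 0 UMIs in all 185 cells, and at most 30.1 CPM in spleen. Of the 35 cells, 9 had a plasma list UMI and all 9 also had a mature list UMI, while 19 had a mature UMI alone. After thinning, 17.1% of the 35 cells (Wilson interval 8.10 to 32.7) had a plasma list UMI, against 23.4% of muscle T cells, 29.3% of S8 muscle B cells, and 34.7% of spleen B cells. Without thinning the shares were 25.7%, 35.9%, 41.3%, and 46.9%. The share outside S8 was thus at the background of T cells.

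**Figure D4:**
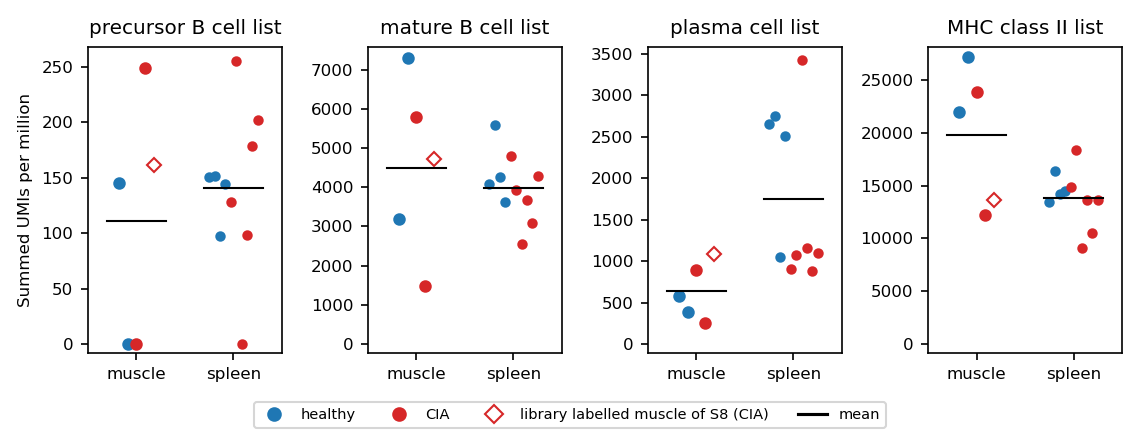
Summed CPM (vertical axes, linear) of the precursor, mature, plasma, and MHC class II lists in 5 muscle and 10 spleen libraries, with 1 point per library and a bar at the mean. The mature list ran from 1493 to 7291 CPM in muscle and from 2549 to 5593 in spleen.

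Immunoglobulin mRNA was found in most muscle B cells, with a constant region UMI in 33 of the 35 cells and in all 150 cells of S8, but also in T cells. An *Igkc* UMI was found in 82.9% of the 35 cells and 60.4% of T cells in the muscle libraries other than S8, and in 86.0% of the B cells and 88.9% of the 9 T cells of S8. After thinning the shares were 68.6% and 48.0% outside S8, 79.3% and 77.8% in S8, and 76.9% in spleen B cells. The shares in S8 were close to each other, but that of T cells rests on 9 cells. These 9 cells held 5700 CPM of *Ighm*, against 1685 in the B cells of S8, and the part of free RNA was not tested. *Igkc*, the kappa light chain (chromosome 6, 70726435 to 70726966), had 3638 CPM in H6, 8058 in H7, 2233 in S2, 1742 in S3, and 5335 in S8, and 3311, 5452, and 12380 CPM (lowest, median, highest) in spleen. T cells of the same libraries held 2549 CPM in H6, 2070 in H7, 1580 in S2, 4969 in S3, and 5375 in the 9 T cells of S8, so that *Igkc* in S3 and S8 was not above its T cells. *Ighm*, the mu heavy chain, had 1892, 2302, 670, 498, and 1685 CPM, against 1239 to 3641 in spleen, with S2 and S3 below all spleen libraries. The highest number of immunoglobulin constant region UMIs in 1 cell was 13 outside S8 and 57 in S8.

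Among switched isotypes, 1 UMI each of *Ighg1* and *Ighg2b* was found outside S8, in separate cells of S3. *Igha* and *Ighe* had 0 UMIs in all muscle B cells. Of the 8 germinal centre genes, 1 UMI of *Bcl6* was seen outside S8 (H6) and 1 UMI of *Mybl1* in S8. Of the 10 genes of marginal zone and B-1 cells, 2 had UMIs outside S8, and 1 of them, *Plac8*, gave 15 of the list's 16 UMIs.

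The summed counts were compared between muscle (5 libraries with at least 5 B cells) and spleen (10 libraries) with edgeR's quasi-likelihood test and disease as a covariate, to ask whether muscle B cells differ in stage. No gene of 973 tested passed an adjusted p of 0.05 (0.0% called), and 43 (4.42%) had an unadjusted p under 0.05, of which 6 were higher in muscle. DESeq2 called 0 genes, with 44 at an unadjusted p under 0.05. Without muscle of S8, edgeR called 0 of 950 genes (0.0%), with 124 (13.1%) at an unadjusted p under 0.05, and DESeq2 called 2, *Fth1* higher and *mt-Rnr2* lower, both named after their values were seen. Muscle lay above spleen without overlap in 2 genes (0.206%) and below it in 1 (0.103%), none of them a member of the gene lists used here.

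The direction of small differences depended on the scaling of the shallow muscle libraries. With TMM factors, which rescale each library by the trimmed mean of its gene ratios, the median log2 difference (muscle minus spleen) of all tested genes was -0.20, and with plain library size it was 0.10. With plain library size 0 genes passed and 35 (3.6%) had an unadjusted p under 0.05, and without muscle of S8 these were 0 and 82 (8.63%). After removal of muscle of S8 these medians were -0.48 and 0.00, and the share of nominal differences that were higher in muscle rose from 13 of 124 to 57 of 82. Log2 differences below are therefore given on both scales, TMM first.

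Of the 15 mature genes, 11 were tested and 0 passed, 3 higher and 8 lower in muscle with TMM (median log2 difference, -0.10, beside -0.20 for all genes) and 7 higher and 4 lower with plain library size (median, 0.22, beside 0.10). Of the 12 identity genes, 9 were tested and 0 passed, with medians of -0.08 and 0.25. Without muscle of S8 the medians were -0.73 and -0.19 for the mature list (11 tested) and -0.61 and -0.08 for the identity list (8 tested), with 0 passed. *Ms4a1* differed by -0.02 ± 0.42 (SE) on the log2 scale with TMM and by 0.33 ± 0.43 with plain size, *Cd22* by -0.08 ± 0.37 and 0.26 ± 0.37, and *Cd79a* by -0.11 ± 0.38 and 0.22 ± 0.38, so that the sign of each changed with the scaling. After removal of muscle of S8 the differences were -0.75 and -0.19 for *Ms4a1*, -0.16 and 0.34 for *Cd22*, and -0.47 and 0.03 for *Cd79a*. *Fcer2a* (0.54 ± 0.64 and 0.91 ± 0.67) was positive on both, with 0.82 and 1.35 without muscle of S8.

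Of the 14 plasma genes, *Jchain* and *Mzb1* were tested and neither passed. *Mzb1* differed by -0.46 ± 0.39 with TMM and -0.15 ± 0.38 with plain size, and by -1.07 and -0.55 without muscle of S8. *Jchain* differed by -2.08 ± 0.99 with TMM (edgeR, adjusted p = 0.93) and -1.82 ± 1.02 with plain size, and without muscle of S8 it was at 0 in all 4 muscle libraries and below all spleen libraries. Of 950 genes tested there, 20 (2.11%) were below spleen without overlap.

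Of the 12 constant region genes, 6 were tested and 0 passed, 5 lower and 1 higher on both scales (medians, -0.65 and -0.33, and -1.35 and -0.81 without muscle of S8). *Igkc* differed by -0.96 ± 0.36 with TMM (edgeR, adjusted p = 0.93) and -0.54 ± 0.36 with plain size, and *Ighm* by -0.84 ± 0.34 and -0.48 ± 0.33. Without muscle of S8, *Igkc* differed by -1.44 ± 0.41 (adjusted p = 0.23) and -0.85 ± 0.42, and *Ighm* by -1.31 ± 0.41 (adjusted p = 0.24) and -0.76 ± 0.41. *Ighd* differed by -0.68 ± 0.50 and -0.38 ± 0.49, and by -1.50 and -0.98 without muscle of S8.

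**Figure D5:**
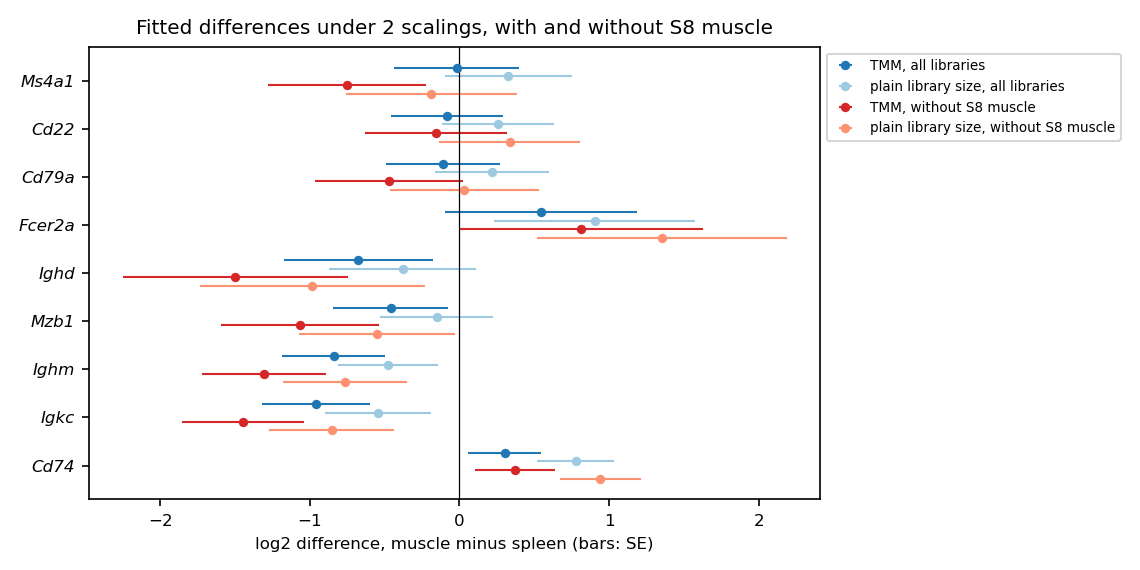
Fitted log2 differences between muscle and spleen B cells (horizontal axis, muscle minus spleen, bars are SE) for 9 genes, with TMM factors or plain library size and with or without muscle of S8. *Igkc*, *Ighm*, *Ighd*, and *Mzb1* lie below 0 and *Cd74* above 0 in all 4 fits, and none passed the threshold.

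*Cd74*, the invariant chain of MHC class II molecules, was the most abundant member of the MHC class II list, and was singled out after its values were seen. It had 12516 CPM in H6, 17652 in H7, 14512 in S2, 4976 in S3, and 5485 in S8, and 2986, 6391, and 7923 CPM (lowest, median, highest) in spleen. It differed by 0.30 ± 0.25 with TMM and 0.78 ± 0.26 with plain size, and without muscle of S8 by 0.37 ± 0.27 and 0.94 ± 0.27 (edgeR, adjusted p = 0.55 and 0.18). T cells also held more *Cd74* in these muscle libraries, with 7341 CPM in H6, 6238 in H7, 6441 in S2, and 2733 in S3, against 811 to 2668 CPM in spleen T cells, and the part of free RNA in the B cell values was not tested. Of the 10 list members, 9 were tested and 0 passed, 3 higher with TMM and 8 with plain size. With muscle of S8 removed, 7 were tested and 0 passed, 2 higher and 5 lower with TMM and 4 higher and 3 lower with plain size. There *H2-DMa*, a peptide-loading subunit also named after its values were seen, was below all spleen libraries on 3 UMIs, with a log2 difference of -1.87 with TMM and -1.39 with plain size (edgeR, adjusted p = 0.24 and 0.54).

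Further pathway lists gave no called gene. Of 15 B cell receptor signalling genes 9 were tested, with median log2 differences of -0.11 with TMM and 0.22 with plain size. With muscle of S8 removed 7 were tested, with medians of -1.34 and -0.83, beside -0.48 and 0.00 for all genes. Of these 7, 3 had an unadjusted p under 0.05 with TMM, against 124 of all 950 genes (13.1%). In the same fit 4 of 6 constant region genes and 3 of 8 identity genes were at that level. With plain library size, still without muscle of S8, these counts were 0 of 7 receptor signalling, 0 of 6 constant region, and 0 of 8 identity genes. There 82 of all 950 genes (8.63%) were at that level, so the excess in these lists was seen with TMM alone. Of 10 survival and costimulation receptors 3 were tested (medians 0.08 and 0.40, and -0.19 and 0.30 without muscle of S8), and of 10 homing and adhesion genes 4 (-0.15 and 0.17, and -0.33 and 0.18). Of 15 interferon response genes 2 were tested (-0.40 and -0.10, and -0.64 and -0.17), and of 15 cell cycle genes 1 (0.14 and 0.52, and for the 2 tested without muscle of S8 0.64 and 1.12). The signs of the receptor signalling, survival, and homing medians thus depended on the scaling or on muscle of S8. Markers of other cells were also present. The 8 granulocyte markers summed to 6695 CPM in H6, 16500 in H7, 893 in S2, 2986 in S3, and 2887 in S8 and to 875, 2525, and 22721 in spleen. The 11 T cell markers summed to 223 to 767 CPM in muscle and 139 to 728 in spleen, the 9 macrophage and monocyte markers to 0 to 384 and 244 to 1073, and the 6 NK cell markers to 0 in H6, H7, S2, and S3, 75.1 in S8, and 11.6 to 211 in spleen. Plasmacytoid dendritic cell markers reached 249 to 670 CPM against 249 to 507, and fibroblast and muscle fibre markers had 2 and 0 UMIs in the 35 cells.

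CIA and healthy muscle B cells were compared in 3 CIA (S2, S3, S8) and 2 healthy (H6, H7) libraries. Of 71 genes tested with edgeR, 0 passed (0.0%) and 4 (5.63%) had an unadjusted p under 0.05, and DESeq2 also called 0, with 4 at that level. The 5 genes with the smallest p were *Gm10269*, *mt-Rnr1*, *Fth1*, *S100a8*, and *Rpl37rt*, none of them B cell stage genes. The mitochondrial ribosomal RNA *mt-Rnr1* had 4221 and 1919 CPM in H6 and H7 and 6698, 12441, and 9285 CPM in S2, S3, and S8, a log2 difference of 1.79 ± 0.55 with TMM (adjusted p = 0.47), 1.34 with plain size, and 1.76 with TMM without muscle of S8. The granulocyte gene *S100a8* had 4221 and 9593 CPM in healthy and 447, 2488, and 2072 CPM in CIA libraries, a log2 difference of -1.62 ± 0.66 (adjusted p = 0.74), -2.05, and -1.98 in the same order. The ferritin chain *Fth1* differed by -1.04 ± 0.40, -1.38, and -0.95. When muscle of S8 was left out, 60 genes were tested, 0 passed, and 1 had an unadjusted p under 0.05. The sample names of H6, H7, and S8 share a prefix that S2 and S3 do not have, so that without S8 prefix and disease cannot be told apart.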

How the data were processed

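Per the paper's methods, the authors aligned the reads with STAR to GRCm38 and counted UMIs with the Drop-seq tools, and the submitters' processing notes also name GRCh38 and mm9 without a role. The deposited UMI counts per gene and cell are not normalized. The authors kept cells above lower limits on reads, transcripts, and genes, capped mitochondrial content, removed cells of very high transcript number as possible duplicates, and labelled the rest from reference profiles, clusters, and markers. Their labels were used as deposited and no doublets were removed here. The 4654 cell columns of other organs were not used.

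UMI counts were summed over the B cells of each library with at least 5 such cells, since a minimum of 10 cells was to be lowered until at least 3 muscle libraries passed. edgeR 4.0.16 in R 4.3.3 fitted quasi-likelihood models with TMM factors, the filterByExpr filter, and disease and organ as terms, with Benjamini-Hochberg adjustment over all genes tested at 0.05. On counts simulated from gene proportions shared by all libraries, TMM moved unchanged genes to lower values in the shallow muscle libraries and plain library size did not. Those counts hold changes balanced in both directions and no other difference in composition between libraries. They cannot show which scaling is right for the real libraries, so both are given. CIA and healthy muscle used at least 3 cells per library. Each SE is the size of the log2 difference over the root of its F. Shares were compared with exact permutation tests over mice (scipy 1.17.1). Libraries of 1 mouse share the animal by the labels, and the correlations of their deviations from the organ means were -0.04 and -0.07 in H6 and H7 and 0.11, 0.10, and 0.26 in S2, S3, and S8. Each library came from 1 mouse. The main fit of muscle and spleen took both libraries of a mouse as independent, so its p-values measure the spread between libraries. In the share tests and the disease comparison, p-values measure the spread between mice.

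The members, the 21 gene lists, and the genes named were chosen with earlier results of these data known. Named genes were list members past the threshold, the defining stage genes whatever their result (some list members are not reported here), the 10 largest changes in each direction past the threshold without overlap, and the 5 smallest adjusted p in the disease comparison. Alternatives were RLE factors, DESeq2, no filter, the mouse as a block, organ alone, CIA mice only, the name prefix, other cell minimums, lysed samples only, no immunoglobulin genes, no myocytes in the denominator, and leaving out each library. Plain library size, TMMwsp, and further fits without S8 were added after the data were seen.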

Additional observations from a re-analysis of the deposited data

Results flagged for a closer look

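In the 6 CIA muscle libraries, the share of B cells in S8 (57.3%) stood apart from the other 5, of which the next was 4.0%, by Dixon's test at the 95% level. This is the library that shares 36 cell barcodes with the S8 spleen library and lacks stromal cells.

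Among spleen B cells, the summed precursor list in healthy H6 (97.2 CPM, below the other 3), the summed plasma list in healthy H6 (1045 CPM, below the other 3), and the summed plasma list in CIA mouse S3 (3423 CPM, above the other 5) stood apart by the same test. Chance flags about 1 in 20 groups, and 14 groups were examined.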

How the results depend on the processing

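The count of genes called between muscle and spleen was 0 with TMM and stayed 0 when each library was left out in turn (range 0 to 0), and it was 4 with no low-count filter (*Igkv12-44*, *Rn7sk*, *mt-Rnr1*, and *mt-Rnr2*, all lower in muscle and named after their values were seen). Without muscle of S8 it was 2 with TMMwsp factors (*mt-Rnr1* and *mt-Rnr2*, lower), 2 with DESeq2, and 75 with no filter, where 18152 genes were tested and the median log2 difference was -1.43. With the mouse as a replicate block, 0 of 342 genes were called (15 at an unadjusted p under 0.05), and without muscle of S8 0 of 117. The unpaired exact permutation test of the organ share gave p = 0.0011, and the block changed no other call. Leaving out mice moved the organ difference from -37.2 to -30.6 and the disease difference from 0.349 (without S8) to 11.8 percentage points. No paired analysis was possible for CIA versus healthy, because the groups hold different mice and the labels name no pairs. The numbers 3 and 6 occur in both groups without a stated match, and muscle of H3 and S6 had 0 B cells. All muscle libraries in the fit were lysed, so the lysis alternative changes nothing, as does a minimum of 3 cells.

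Signs of uncalled log2 differences changed as follows. The fit at 20 or more cells holds muscle of S8 as its single muscle library, which is assumed to vary like the spleen libraries, so its values are those of that library alone. *Ms4a1* was 0.080 with RLE factors, 0.083 with DESeq2, 0.049 with the block, 0.026 in CIA mice only, 0.75 at 20 or more cells, and 0.33 with plain size (-0.75 to 0.12 over libraries left out). *Cd22* was 0.0090 with RLE factors, 0.0080 with DESeq2, 0.44 with the block, 0.26 with plain size, and, without muscle of S8, 0.34 with plain size and 0.015 with DESeq2 (-0.31 to 0.095). *Cd79a* was 0.043 with DESeq2, 0.18 with the block, 0.28 at 20 or more cells, 0.22 with plain size, and 0.031 with plain size without muscle of S8 (-0.47 to 0.014). *Fcer2a* was -0.067 with no filter and -0.27 with no filter without muscle of S8, and *Mzb1* was 0.13 at 20 or more cells. *Cd74* was -0.49 with no filter, -0.071 in CIA mice only, -0.21 at 20 or more cells, and -0.63 with no filter without muscle of S8 (-0.012 to 0.41). The cause was not tested.

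Without thinning, the mean share of spleen B cells with a UMI rose to 8.02% for the precursor, 83.9% for the mature, and 45.8% for the plasma list. Depth limits the muscle values: the 35 cells outside S8 hold 18431 UMIs.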
